A study of Mus musculus with 2 samples.

Results

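ISG15 and the enzymes that attach it to proteins and remove it were examined in C57BL/6J mouse macrophages differentiated from bone marrow, on arrays hybridised with RNA of polysomal gradient fractions. The 5 genes were Isg15, which encodes the modifier, Uba7, Ube2l6 and Herc6, which encode the conjugating enzymes, and Usp18, which encodes the protease that takes ISG15 off. They were chosen by gene symbol from the array annotation, out of 22088 genes with a symbol, and each was represented by 1 probe set. A symbol search found 4 of them. Herc6 was found under its older symbol Herc5, through the transcript accession NM_025992 that the RefSeq gene table assigns to Herc6 with Herc5 as a synonym.

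The Oasl1-/- group was 1 array of macrophages that lack the interferon-induced protein OASL1, and the wild-type group was 1 array of macrophages with an intact gene. Both were made from marrow cells grown for 7 days with L929 cell supernatant and then given 10 µg/ml poly(I:C), an artificial double-stranded RNA that cells sense as viral, over 12 h. RNA was taken from fractions 9 to 11 of 16 of a sucrose gradient, where mRNAs that carry several ribosomes sediment. Neither the region removed from Oasl1 nor the number of mice behind each array is stated in the labels. Both groups received poly(I:C), so neither array shows the level before induction. With 1 array per genotype there is no replicate spread and no test, and every difference below is a comparison of 2 arrays. A higher signal in these fractions can come from more mRNA or from more cells that respond. It can also come from a change in ribosome loading, in either direction, that moves mRNA into them. These cannot be told apart here.

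ISG15 is a small ubiquitin-like protein that is made in large amounts after type I interferon. It is activated by the E1 enzyme UBA7, passed to the E2 enzyme UBE2L6 and linked to target proteins by an E3 ligase, which in the mouse is mainly HERC6. USP18 removes ISG15 from its targets and also binds the interferon receptor subunit IFNAR2, where it dampens further signalling. In macrophages the whole set of genes is known to be induced by interferon, and ISG15 is also secreted and acts on other cells through the integrin LFA-1.

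All 5 genes had a higher polysomal signal in the Oasl1-/- array, by 1.11-fold to 1.81-fold, and none reached 2-fold. Usp18 had the widest difference and Ube2l6 the narrowest, while Isg15, Uba7 and Herc6 lay within 0.023 of each other on the log2 scale. The median of the 5 log2 differences, Oasl1-/- minus wild-type, was 0.48, a 1.40-fold difference. Across the 7835 genes whose log2 signal reached 7 on at least 1 array, the median difference was -0.09 and the SD over genes was 0.39. Of those genes 39.1% were higher by any amount in the Oasl1-/- array, a share that varied between 38.9% and 53.4% with the scale and the signal floor. All 5 genes of the ISG15 system passed the floor and were among the higher ones on each of these scales.

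**Figure D1:**
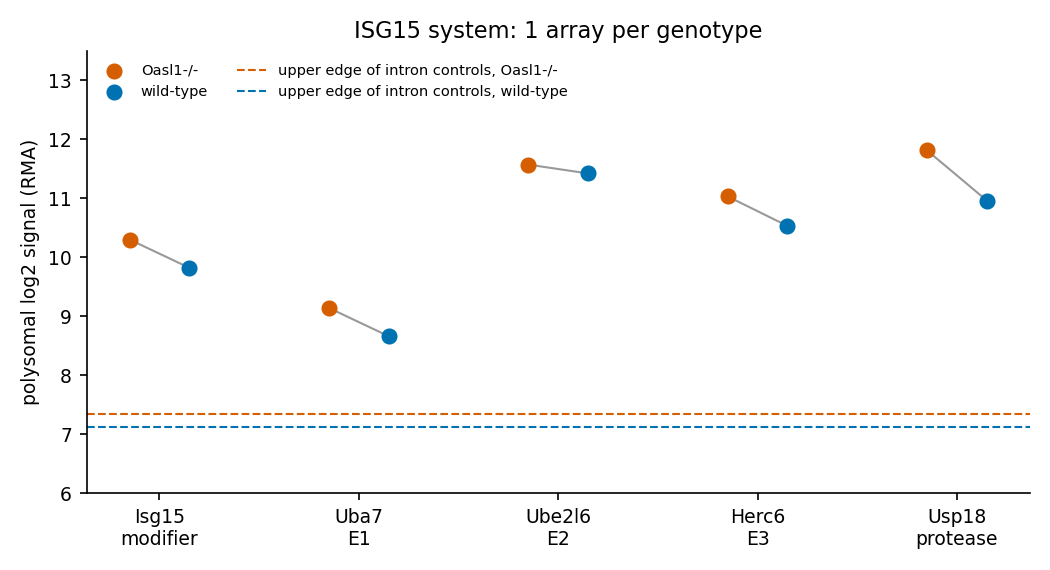
Polysomal log2 signal (vertical axis) of the 5 genes of the ISG15 system, with the Oasl1-/- array (orange) left of the wild-type array (blue) for each gene and 1 array per genotype. Dashed lines mark the upper edge of the central 95% of intron control probe sets, 7.34 in Oasl1-/- and 7.13 in wild-type, and every point lies above its line.

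The arrays carried the markers of their labelled cell type. All 8 macrophage markers passed the floor, with log2 signals from 8.99 to 12.78 in Oasl1-/- and 8.40 to 12.77 in wild-type. None of the 8 was lower in Oasl1-/-, while 39.1% of all genes past the floor were higher there. The median difference of the 8 was 0.11. They ranged from 0.00 for Lyz2, a lysozyme gene, to 0.59 for Mertk, a receptor for apoptotic cells. The endotoxin co-receptor gene Cd14 differed by 0.48 and the Fc receptor gene Fcgr1 by 0.45, so these 3 lay near or above the ISG15 median of 0.48, and the other 5 differed by at most 0.14. The part of this shift in the ISG15 differences was not tested. None of 26 markers of 7 other cell types passed the floor, and the brightest of these was Col1a1. Its signal was 6.94 in Oasl1-/- and 6.56 in wild-type.

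Isg15, the modifier, had a log2 signal of 10.30 in the Oasl1-/- array and 9.82 in the wild-type array. The difference was 0.48, which is 1.39-fold and ranked 621 of 7835, counted from the largest positive difference. Its probe set of 25 probes is placed by the array annotation on chromosome 17, from 46543911 to 46544523 on the minus strand (NCBIM37), although the cytoband given in the same row lies on chromosome 4. RefSeq (GRCm38.p6) puts Isg15 on chromosome 4 and lists a pseudogene, Gm9706, inside Zfp318 on chromosome 17. The interval of the probe set also falls inside Zfp318, a zinc finger gene on the opposite strand, whose own probe set had 7.64 in Oasl1-/- and 7.52 in wild-type, a difference of 0.12. Probe sequences were not used here, so the share of the Isg15 signal that comes from either locus was not tested. Such a placement on another chromosome than RefSeq's was found for 326 of 7463 comparable genes, or 4.37%, and for 1 of the 5 genes examined here.

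Uba7, the E1 enzyme that activates ISG15, had a log2 signal of 9.14 in Oasl1-/- and 8.66 in wild-type macrophages. Its difference of 0.48 is 1.40-fold and ranked 614 of 7835. The 50 probes of its probe set lie on chromosome 9, from 107877892 to 107897338 on the plus strand. Its signal stood 1.80 above the upper edge of the central 95% of intron controls in Oasl1-/- and 1.54 above it in wild-type. A gene inside its interval on the opposite strand, 6230427J02Rik (now Inka1), was below the floor, with 6.00 in Oasl1-/- and 6.54 in wild-type.

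Ube2l6, the E2 enzyme that receives ISG15 from UBA7, had a log2 signal of 11.57 in Oasl1-/- and 11.42 in wild-type macrophages. The 2 values differed by 0.15, or 1.11-fold, the smallest difference of the 5. Of all genes 24.4% had a difference at least that large, so Ube2l6 stood inside the bulk of the distribution. Its 26 probes lie on chromosome 2, from 84638996 to 84650333 on the plus strand, and no other named probe set overlaps them.

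Herc6, the mouse E3 ligase for ISG15, had a log2 signal of 11.03 in Oasl1-/- and 10.53 in wild-type macrophages. The difference was 0.50, which is 1.42-fold and ranked 561 of 7835. Its probe set of 26 probes is placed on chromosome 6 from 57435115 to 57612909 on the plus strand. The place of each probe in this interval, and any signal from outside Herc6, was not tested. This interval also covers Ppm1k, which encodes a mitochondrial phosphatase, on the opposite strand. Ppm1k itself had 9.67 in Oasl1-/- and 8.78 in wild-type, a difference of 0.88.

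Usp18, the ISG15 protease and brake on interferon receptor signalling, had a log2 signal of 11.81 in Oasl1-/- and 10.96 in wild-type macrophages. Its difference of 0.86, or 1.81-fold, ranked 180 of 7835, so that 2.30% of genes had a difference as large. It exceeded the next of the 5, Herc6, by 0.35 on the log2 scale. Its 28 probes lie on chromosome 6, from 121195975 to 121220935 on the plus strand, with no overlapping named probe set. The named genes on either side of it, Tuba8 and Slc6a13, were below the floor on both arrays.

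Against fixed folds the group gave 1 call, at 1.5-fold. None of the 5 was at least 2-fold higher, where 1.57% of all genes were, and none was at least 2-fold lower, where 0.651% of all genes were. At 1.5-fold 1 of the 5, Usp18, was higher, where 5.27% of all genes were, and none was lower, where 6.28% were. Apart from these calls, the 5 genes shared their direction, and their differences spanned 0.70 on the log2 scale.

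**Figure D2:**
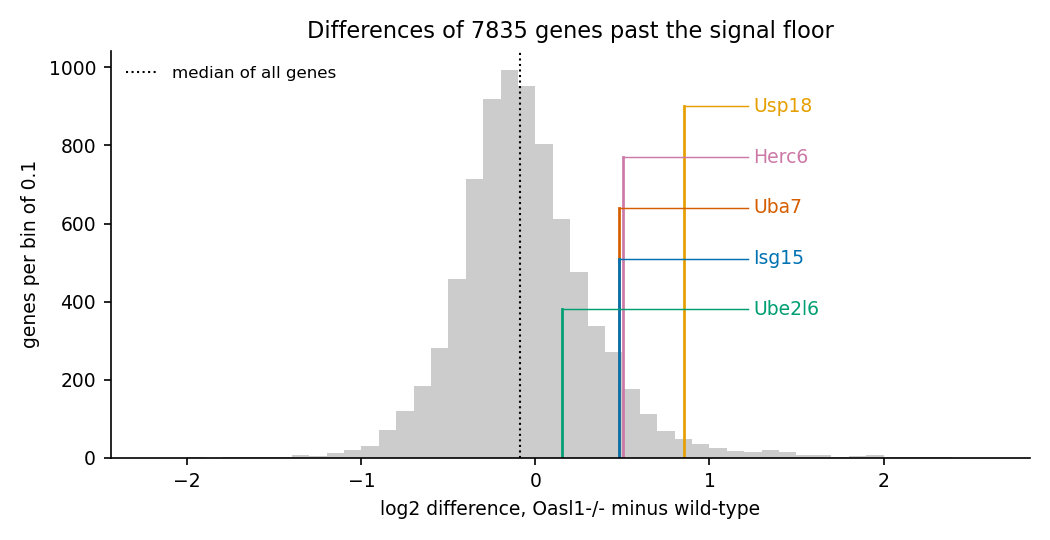
Number of genes (vertical axis) by log2 difference, Oasl1-/- minus wild-type (horizontal axis, bins of 0.1), for 7835 genes past the signal floor. Coloured lines mark the 5 genes of the ISG15 system, from 0.15 for Ube2l6 to 0.86 for Usp18, all right of the dotted median of -0.09.

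Promoter sequences were available for 4 of the 5 genes in a RefSeq-derived table (GRCm38.p6), with Usp18 not among them. Type I interferon acts on many of its target genes through the interferon-stimulated response element, and interferon regulatory factors such as IRF7 bind the related core AANNGAAA. The 250 bases before the annotated start were searched on both strands for the repeated core of the response element, which is GAAA, 2 bases of any kind and GAAA again, and for AANNGAAA, which is contained in every such repeat. Shown are Isg15 and Uba7, the genes with a match, and Ube2l6, the gene with the smallest difference. Each is written 5′ to 3′ on the strand of the gene, with matches in capitals.
Isg15 (GRCm38.p6, chr4:156200819-156201068, minus strand): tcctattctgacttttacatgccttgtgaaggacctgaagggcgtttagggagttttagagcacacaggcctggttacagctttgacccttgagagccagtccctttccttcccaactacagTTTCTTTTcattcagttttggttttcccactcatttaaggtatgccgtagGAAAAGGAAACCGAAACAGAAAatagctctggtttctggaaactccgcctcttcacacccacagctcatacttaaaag
Uba7 (GRCm38.p6, chr9:107975317-107975566, plus strand): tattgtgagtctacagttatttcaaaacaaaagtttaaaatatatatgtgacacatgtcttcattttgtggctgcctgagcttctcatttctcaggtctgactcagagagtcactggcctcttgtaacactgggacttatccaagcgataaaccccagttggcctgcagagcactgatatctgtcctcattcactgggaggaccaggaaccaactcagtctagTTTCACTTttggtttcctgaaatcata
Ube2l6 (GRCm38.p6, chr2:84798578-84798827, plus strand): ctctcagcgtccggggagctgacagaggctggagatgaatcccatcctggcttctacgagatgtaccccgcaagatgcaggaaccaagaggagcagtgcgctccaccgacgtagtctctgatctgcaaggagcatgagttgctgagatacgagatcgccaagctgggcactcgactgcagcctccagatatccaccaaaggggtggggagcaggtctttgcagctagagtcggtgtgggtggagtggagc

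In the Isg15 window the repeated core occurred 3 times in overlapping positions, between 78 and 57 bases before the start, and AANNGAAA occurred 4 times, once on the opposite strand. The Uba7 window held 1 AANNGAAA, on the opposite strand, between 27 and 20 bases before the start. The windows of Ube2l6 and Herc6 held neither pattern. Among 32841 windows of the same length the repeated core was in 2.98% and AANNGAAA in 21.3%. Of 36 other interferon-stimulated genes with a window 11 held the repeated core and 18 held AANNGAAA. These matches describe the sequence and are no measure of factor binding. Isg15 and Uba7, with different patterns before their starts, had differences that both round to 0.48. Herc6 and Ube2l6, without any, had 0.50 and 0.15, and Usp18 had no window. Whether the patterns bear on the differences was not tested.

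The 4 enzymes were set beside the other genes of their own classes, taken by symbol. Uba7 had the highest difference of 9 E1 genes past the floor, followed by Uba1, the main E1 of ubiquitin, at 0.06. Uba1 had 12.22 in Oasl1-/- and 12.16 in wild-type, and Uba6, which activates both ubiquitin and FAT10, had 8.66 in Oasl1-/- and 8.62 in wild-type. The other 8 E1 genes had a median of -0.10, with Sae1 and Uba2, the subunits of the SUMO E1, lowest at -0.51 and -0.34, and Uba3 of the NEDD8 E1 at -0.13. None of these 8 was 1.5-fold different in either direction, while 5.27% of all genes were higher and 6.28% lower by that fold.

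Among E2 genes Ube2l6 stood in place 2 of 27, behind Ube2e2 at 0.21. The other 26 had a median of -0.28, with 22 lower and 4 higher in the Oasl1-/- array. Of all genes past the floor only 39.1% were higher, with a median of -0.09. The small positive difference of Ube2l6 thus lay at the upper end of a class that was mostly lower. Its closest relative, the ubiquitin E2 gene Ube2l3, had 11.24 in Oasl1-/- and 11.42 in wild-type, a difference of -0.18. Ube2e3 had the widest difference of the class at -0.64, and Ube2a had -0.45. Ube2e3 alone passed 1.5-fold, on the lower side, where 6.28% of all genes were.

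Herc6 had the highest difference of 5 HERC genes. Herc3 differed by 0.23 and Herc4 by 0.10, while the large members Herc1 and Herc2 differed by -0.13 and -0.27. Usp18 had the highest difference of 30 genes named as ubiquitin-specific proteases. It was followed by Usp42 at 0.61 and Usp12 at 0.43, and the lowest was Usp10 at -0.60. The other 29 had a median of -0.04, with 13 higher and 16 lower, a split that turned to 18 higher and 11 lower after centring on the median gene. Among all genes past the floor 39.1% were higher on the deposited scale and 50.0% after centring. These ranks have no test, because each rests on 1 array per genotype.

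**Figure D3:**
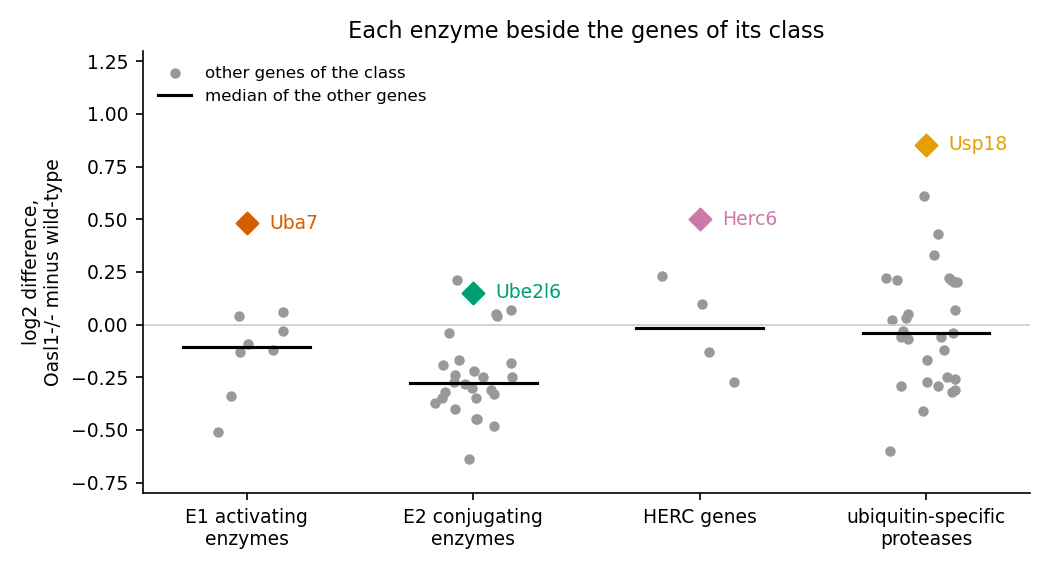
Log2 difference, Oasl1-/- minus wild-type (vertical axis), of the 4 ISG15 enzymes (coloured diamonds) and of the other genes of their classes past the signal floor (grey points, spread sideways for visibility), with the median of the other genes as a bar. Uba7, Herc6 and Usp18 stand at the top of their classes, and Ube2l6 at 0.15 is second to Ube2e2.

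Other ubiquitin-like conjugation systems were compared through lists of their modifiers and enzymes. The ubiquitin core list of 7 genes had a median of -0.04, or 0.05 after centring, with Uba1 highest at 0.06 and the ubiquitin fusion gene Rps27a at -0.23. The 13 SUMO genes had a median of -0.36, with 11 lower and 2 higher. For comparison, 39.1% of all genes past the floor were higher on the deposited scale, and their median was -0.09. All 6 NEDD8 genes were lower on the deposited scale, with a median of -0.18, and Nedd8, its modifier, at -0.47. After centring 1 of these 6 was higher, and after loess 2 were. The 6 UFM1 genes had a median of -0.17, with Ufm1 itself at -0.65, the ligase adaptor Ddrgk1 at 0.41 and the protease Ufsp2 at -0.32.

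The 10 genes of ATG8 and ATG12 conjugation, used in autophagy, had a median of -0.23, with Gabarapl1 at -0.56, Atg4b at -0.40 and Gabarapl2 at -0.35. FAT10, the other interferon-linked modifier, is encoded by Ubd, which was below the floor with 3.57 in Oasl1-/- and 3.51 in wild-type. Its E2 gene Ube2z had 10.05 in Oasl1-/- and 10.00 in wild-type, and Uba6, its E1 gene, differed by 0.04. The median of these 2 was 0.05. On the deposited scale no gene of the ubiquitin, SUMO, NEDD8, FAT10 or ATG lists past the floor was 1.5-fold different in either direction. Of the UFM1 list only Ufm1 was, on the lower side. By that fold 5.27% of all genes were higher and 6.28% lower. The ISG15 genes had a higher median than each of these lists, with no test between them.

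**Figure D4:**
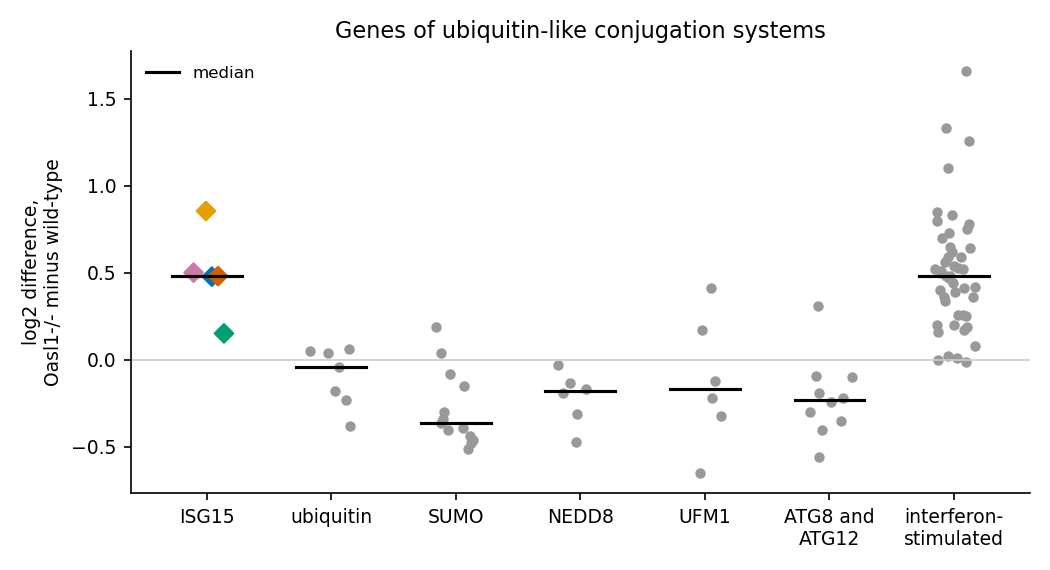
Log2 difference, Oasl1-/- minus wild-type (vertical axis), of the 5 genes of the ISG15 system (coloured diamonds), of genes of other ubiquitin-like systems and of other interferon-stimulated genes past the signal floor (grey points), with the median of each set as a bar. The ISG15 set and the interferon-stimulated set both have a median of 0.48, and the bars of the ubiquitin, SUMO, NEDD8, UFM1 and ATG sets lie between -0.36 and -0.04 on the deposited scale shown, while that of ubiquitin was 0.05 after centring. The FAT10 list, with 2 genes past the floor and a median of 0.05, is not drawn.

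The other genes with a reported part in ISG15 biology did not share one direction. Of 14 such genes 12 passed the floor, 6 of them higher and 6 lower, with a median of -0.01 that was 0.08 after centring. Among all genes past the floor 39.1% were higher. The integrin subunit gene Itgal, part of the LFA-1 receptor for secreted ISG15, had 9.57 in Oasl1-/- and 8.48 in wild-type, a difference of 1.09. It was the 1 gene of this list at least 1.5-fold and at least 2-fold higher, where 5.27% and 1.57% of all genes were. Its partner Itgb2 had 12.03 in Oasl1-/- and 11.73 in wild-type, a difference of 0.30. Ifnar2, the receptor subunit that USP18 binds, had 10.27 in Oasl1-/- and 9.82 in wild-type, a difference of 0.45.

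Of the proposed further ISG15 ligases, Trim25 had 10.71 in Oasl1-/- and 10.55 in wild-type, and Arih1 had 10.54 in Oasl1-/- and 10.59 in wild-type. Proteases reported to cleave ISG15 beside ubiquitin differed by 0.03 for Usp16, -0.12 for Usp5, -0.26 for Usp14 and -0.27 for Usp21, and Usp2 and Usp13 were below the floor. Among those past the floor, Usp18 was thus the one with a positive difference above 0.1. The ISG15-binding proteins Sqstm1, an autophagy receptor, and Hdac6, a deacetylase, differed by 0.15 and -0.37. Skp2, part of a ligase that degrades USP18, had 7.01 in Oasl1-/- and 7.23 in wild-type.

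Genes of reported ISG15 target proteins were mixed as well. Of 16 past the floor 8 were higher and 8 lower, and the median was 0.01, while after centring 11 were higher and 5 lower. Among all genes past the floor 39.1% were higher, or 50.0% after centring. The widest differences were those of the interferon-induced targets Ifit1 at 2.14-fold, with 10.40 in Oasl1-/- and 9.31 in wild-type, Ddx58 (the RNA sensor RIG-I) at 0.59 on the log2 scale and Ifit3 at 0.59. These 3 were at least 1.5-fold higher, where 5.27% of all genes were, and none was 1.5-fold lower, where 6.28% were.

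Genes of interferon signalling, which drives the ISG15 system, were mostly higher. Of 10 past the floor 9 were higher, where 39.1% of all genes were, and the median difference of the 10 was 0.44. Irf7, whose translation OASL1 is known to restrain, had 11.47 in Oasl1-/- and 10.14 in wild-type, a difference of 1.33. It was the 1 gene of the list at least 1.5-fold higher, where 5.27% of all genes were. Irf1 differed by 0.56 and Stat2 by 0.48. The targeted gene itself, Oasl1, had 9.14 in Oasl1-/- and 10.70 in wild-type, which left 33.7% of the wild-type signal, and whether its 29 probes lie inside the deleted part was not tested.

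Within a list of 47 other interferon-stimulated genes, all past the floor, 45 were higher, where 39.1% of all genes were. The median of the 47 was 0.48, the value of Isg15 and Uba7. Usp18 was exceeded by 4 of the 47, Herc6 by 22, Isg15 and Uba7 by 25 each and Ube2l6 by 42. The ISG15 genes were thus spread over the range of this list. By the gap in log2 difference, a likeness that rests on 2 arrays only, Isg15 stood closest to Epsti1 and Nmi. Uba7 stood closest to Epsti1 and Stat2, and Herc6 to Cmpk2 and Eif2ak2, each of these gaps within 0.007. The 47 differences lay between -0.01 and 1.66, so a small gap to some gene was likely and is no sign of shared regulation. Ube2l6 stood closest to Trim25 at 0.16 and the immunoproteasome subunit gene Psmb8 at 0.17. Usp18 stood closest to the peptide transporter gene Tap1 at 0.85 and the RNA sensor gene Ifih1 at 0.83.

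The order of the 5 differences was Usp18, Herc6, Uba7, Isg15 and Ube2l6 in the deposited signals. The places of Herc6, Uba7 and Isg15 are not settled, since after removing a loess trend Uba7 stood above Herc6. Usp18 at the top and Ube2l6 at the bottom kept their places under centring, loess, quantile normalization and a pseudocount of 32 on the linear scale. For comparison, 603 genes had several probe sets with enough signal, and the widest gap within a gene had a median of 0.08 and was at most 0.34 in 90% of them, which is about the step from Usp18 to Herc6 or from Isg15 to Ube2l6. The 5 genes have 1 probe set each, so this within-array check could not be made for them.

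**Figure D5:**
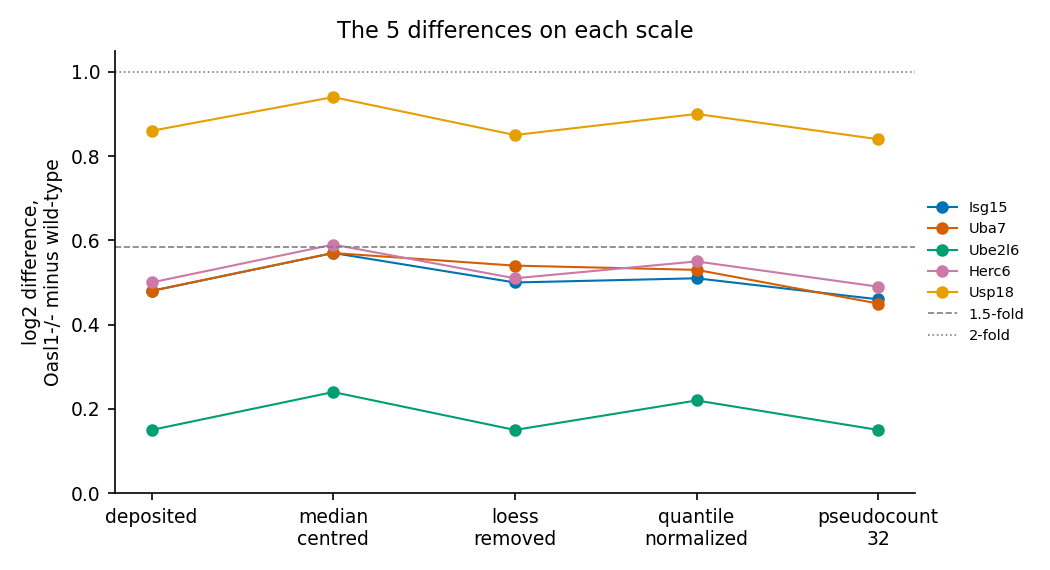
Log2 difference, Oasl1-/- minus wild-type (vertical axis), of each of the 5 genes in the deposited signals and on 4 other scales (horizontal axis), with lines joining the points of 1 gene. Usp18 lies between 0.84 and 0.94 and Ube2l6 between 0.15 and 0.24 throughout, and Herc6 crosses the dashed 1.5-fold line only after centring.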

How the data were processed

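Polysomal RNA was hybridised to Affymetrix Mouse Gene 1.0 ST arrays, 1 per genotype. The authors deposited log2 signals, made with RMA per the submitters' processing notes, for 35556 probe sets, which leaves depth unknown and makes the number of arrays the limit on precision. RMA brings arrays to a shared distribution, so a difference common to all mRNAs is largely removed. The series' design text names GCOS, the affy package (2.9.2) in R and Affymetrix Expression Console (1.1). The authors' deposited log2 ratio equalled Oasl1-/- minus wild-type in all 35556 rows (within 1e-05), and their deposited fold change is the linear ratio without sign. A second deposited table held the same signals.

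Where a gene had several probe sets, the brightest on average stood for it, and genes with at least 1 signal of 7 or more were compared (pandas 2.3.3). In 5222 intron controls the central 95% reached up to 7.34 in Oasl1-/- and 7.13 in wild-type, slightly above this floor. Named were the 5 genes, all further ISG15 genes, the widest 3 of each list or class, direct counterparts, the closest interferon-stimulated genes and chromosomal neighbours. A few genes taken by this rule are not reported here. Ube2cbp and Usp6nl were left out of the classes, since their products are no E2 and no protease. Genes and lists were chosen with earlier results of these data known, and AANNGAAA was added after the promoters were read. Alternatives were centring, loess (statsmodels 0.14.6), quantile normalization, a pseudocount, other floors, the mean over probe sets and the second table. The procedure was tested on simulated data with planted differences larger than any of those of the 5 genes. That check does not cover differences of their size.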

Additional observations from a re-analysis of the deposited data

How the results depend on the processing

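All 5 genes were higher in the Oasl1-/- array, and none was 2-fold higher, under each of the 9 alternatives run. The other floors, the mean over probe sets and the second table could not change the values of these 5 genes. Centring and the pseudocount changed the values but could not turn their direction, so only loess and quantile normalization could have done so. Their median difference stayed between 0.46 and 0.57, Isg15 between 0.46 and 0.57, Uba7 between 0.45 and 0.57, Herc6 between 0.49 and 0.59, Ube2l6 between 0.15 and 0.24 and Usp18 between 0.84 and 0.94. After centring, 2 of the 5 instead of 1 were at least 1.5-fold higher, because Herc6 crossed the threshold by a shift of the whole scale. The background moved more. With no floor 2.9% of genes were at least 1.5-fold and 0.625% at least 2-fold higher, as many dim genes enter. The share of genes with a difference as large as that of Usp18 was then 0.987% instead of 2.30%, and for Herc6 4.64% instead of 7.16%. The share at least 1.5-fold lower was 3.94% after centring, 3.4% after loess, 3.98% with a pseudocount of 32 and 3.22% with no floor, and the share at least 2-fold lower was 0.408%, 0.345%, 0.298% and 0.349% in that order. The second deposited table gave identical values. No paired analysis was possible because each genotype has 1 array. For the same reason no replicate could be left out.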

Other observations

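The array annotation lists the term for ISG15-protein conjugation in 4 rows, and all 4 are genes examined here, namely Isg15, Uba7, Ube2l6 and Usp18. Herc6, under its older symbol Herc5, does not carry it. Named genes next to the probe sets had little signal. Traip and Cdhr4 beside Uba7, Serping1 and Smtnl1 beside Ube2l6, Vmn1r20 and Pigy (now Pyurf) beside Herc6, and BC040756 and Crip3 beside the interval given for Isg15 were below the floor on both arrays. Placement on another chromosome than in RefSeq also touched genes set beside the ISG15 system, among them Ube2l3 and Rps27a, named after their positions were seen.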
